A study of Rattus norvegicus with 9 samples.

Results

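A set of 10 genes, Tmem119 and 9 genes known from fibroblasts, was followed across the right ventricles of rats. The genes were Tmem119, Pdgfra, Thy1, Tcf21, Fap, Meox1, Cthrc1, Dpt, Vim and S100a4. Each was measured by the array feature that carries its symbol and no other, which gave 10 of 10 genes and 1 feature each out of 29215 features on the array. The male Sprague-Dawley (SD) rats were either sham-operated (Sham) or had their pulmonary artery banded (PAB), which loads the right ventricle with pressure. Banded ventricles were assigned 4 weeks after the operation to the F+ group where the fibrotic area was over 6.5% and to the F- group where it was under 6.5%. Every group had 3 arrays, and the labels name no altered gene and no drug for any of them. The sources used here do not give the age of the rats, or say that a separate animal stands behind each array, so the p-values reflect array-to-array spread that may be technical. Tmem119 was picked because it was higher in F+ than in F- on these same arrays, and its differences between groups are therefore described without a test. The other 9 genes were listed as fibroblast genes, with earlier results of these data known.

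Fibroblasts of the heart maintain the collagen network between the muscle cells. Under pressure overload they become activated, move towards a contractile myofibroblast state and lay down matrix. Pdgfra encodes a receptor for platelet-derived growth factors and Tcf21 a transcription factor of epicardial and fibroblast development, and both mark resident cardiac fibroblasts. Fap, which encodes a cell surface protease, Cthrc1, which encodes a secreted glycoprotein, and Meox1, which encodes a homeobox transcription factor, are known from activated fibroblasts. Dpt encodes dermatopontin, a matrix protein that binds decorin. Thy1, Vim and S100a4 are used as fibroblast markers but are not particular to these cells. The Thy1 protein is also found on some T cells, vimentin is an intermediate filament of most mesenchymal and endothelial cells, and S100A4 is a calcium-binding protein also made by leukocytes. Tmem119 encodes a membrane protein that is known from bone-forming osteoblasts and from microglia, the macrophages of the brain.

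The promoters of 4 of the genes are shown because the genes took opposite courses over the arrays. S100a4 and Fap were higher on each F+ array than on any Sham array, whereas Tcf21 and Pdgfra were not, and their values ran against those of S100a4. The sequences are those of RefSeq on the rat assembly GRCr8 and run from 250 bases before the start of the gene to 50 bases after it. RefSeq promoters were used for 6 of the 10 genes. Capitals mark every stretch, on either strand, with the letters of the TATA box (TATAAA), the E-box (CANNTG), which TCF21 and its relatives bind, the homeobox motif (TAATTA) and its looser form (TAATNA), which contains it, the AP-1 motif (TGANTCA), the SMAD element (CAGAC) and the GC box (GGGCGG).
S100a4: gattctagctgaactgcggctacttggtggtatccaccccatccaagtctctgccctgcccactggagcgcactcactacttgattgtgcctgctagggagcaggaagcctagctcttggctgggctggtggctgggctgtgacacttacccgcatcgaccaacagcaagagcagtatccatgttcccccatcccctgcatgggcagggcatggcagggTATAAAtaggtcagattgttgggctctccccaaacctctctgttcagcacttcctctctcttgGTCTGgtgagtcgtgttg
Fap: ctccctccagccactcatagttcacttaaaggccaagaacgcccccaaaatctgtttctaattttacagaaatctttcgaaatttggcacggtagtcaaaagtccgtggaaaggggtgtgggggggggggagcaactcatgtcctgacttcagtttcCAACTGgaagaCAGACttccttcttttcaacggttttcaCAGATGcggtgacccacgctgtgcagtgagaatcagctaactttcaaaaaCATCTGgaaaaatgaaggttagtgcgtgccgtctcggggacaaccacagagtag
Tcf21: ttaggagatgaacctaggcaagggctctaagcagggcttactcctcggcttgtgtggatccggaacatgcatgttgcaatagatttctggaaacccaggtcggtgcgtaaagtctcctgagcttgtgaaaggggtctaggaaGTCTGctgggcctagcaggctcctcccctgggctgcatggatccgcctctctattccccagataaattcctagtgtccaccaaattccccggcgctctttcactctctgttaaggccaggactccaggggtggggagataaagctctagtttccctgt
Pdgfra: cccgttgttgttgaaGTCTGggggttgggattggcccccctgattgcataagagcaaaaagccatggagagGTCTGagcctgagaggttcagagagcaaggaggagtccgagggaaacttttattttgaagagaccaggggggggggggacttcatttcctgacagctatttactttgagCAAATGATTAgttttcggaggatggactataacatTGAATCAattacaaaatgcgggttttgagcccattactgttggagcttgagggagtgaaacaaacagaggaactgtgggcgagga
These windows lie at chr2:178388279-178388578 on the plus strand for S100a4, chr3:67616042-67616341 on the minus strand for Fap, chr1:24520249-24520548 on the plus strand for Tcf21 and chr14:33408467-33408766 on the minus strand for Pdgfra. S100a4 had a TATA box whose first base was at -31 from the start. Dpt had the same letters at -29 and Vim at -82, which makes 3 of the 6 windows, and 14.2% of 33469 promoters of this length hold TATAAA. The Fap window held 3 E-boxes, at -93, -54 and -4, and the Dpt window held 5. An E-box stood in 3 of the 6 windows against 72.1% of all promoters. The SMAD element stood in 4 of the 6, those of S100a4, Fap, Tcf21 and Pdgfra, against 50.1% of all promoters. The AP-1 letters were present in the Pdgfra window, at -35, and 7.33% of all promoters hold them. In the same window an E-box at -70 overlapped a TAATNA match at -66, a motif held by 28.0% of all promoters. The 4 printed windows thus shared the SMAD letters, which the Vim and Dpt windows lacked, and these matches describe letters and not bound sites.

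The deposited values are signal intensities between 1 and 190.4, with medians of 33.4 to 33.9 on the 9 arrays. No source used here gives the scale. None of the 10 genes had a mean in the dimmest 33.3% of features. All differences given here are differences of mean log2 deposited values, and folds are also given for the case that the deposited values are squares of log2 signals. Sham array 2 stood apart in genes of the atrium. Sham array 2 had 149.9 for Myl7, which encodes an atrial myosin light chain, against 63 to 110.4 on the other arrays, and 85.8 for Bmp10, an atrial growth factor, against 15.5 to 18.9. F- array 1 was not high in these genes and had the lowest Myl7 value, 63, and the lowest Bmp10 value, 15.5. It stood apart from F- arrays 2 and 3 in Nppa, which encodes atrial natriuretic peptide, with the highest value of all, 155.6. F- arrays 2 and 3 gave 37 and 43.6 for Nppa, and the F+ arrays gave 134.3 to 149.5. The Sham arrays gave 57.7, 135.8 and 59.7, so Sham array 2 lay within the F+ range. In whole tissue, more cells of a type and more RNA per cell cannot be told apart.

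Tmem119 was higher on the F+ arrays than on all the others. The values read 39.4, 45.3 and 38.1 (Sham), 47.5, 34.2 and 36 (F-) and 65.6, 57.7 and 58.6 (F+). The F- arrays spanned the range of the Sham arrays, with array 1 above it and arrays 2 and 3 below it. F+ tissue averaged 60.6 ± 4.33 (SD, n = 3), F- tissue 39.2 ± 7.22 (SD, n = 3) and Sham tissue 40.9 ± 3.84 (SD, n = 3). The F+ and F- groups differed by 0.64 on the log2 scale, which is 1.56-fold, or 2.9-fold if the values were squares of log2 signals. The F+ and Sham groups differed by 0.57, and the F- and Sham groups by -0.073, less than the spread of the F- arrays. Without F- array 1 the first of these was 0.79. The Tmem119 gene lies on chromosome 12 from 48489157 to 48496214 of GRCr8. The study chose Tmem119 by a limit of 1.5-fold between these groups, and Tmem119 was just inside it. By the difference of mean log2 values, 0.154% of all features, with or without a symbol, were more than 1.5-fold higher in F+ than in F-. The study averaged intensities, so its own folds can differ from these.

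**Figure D1:**
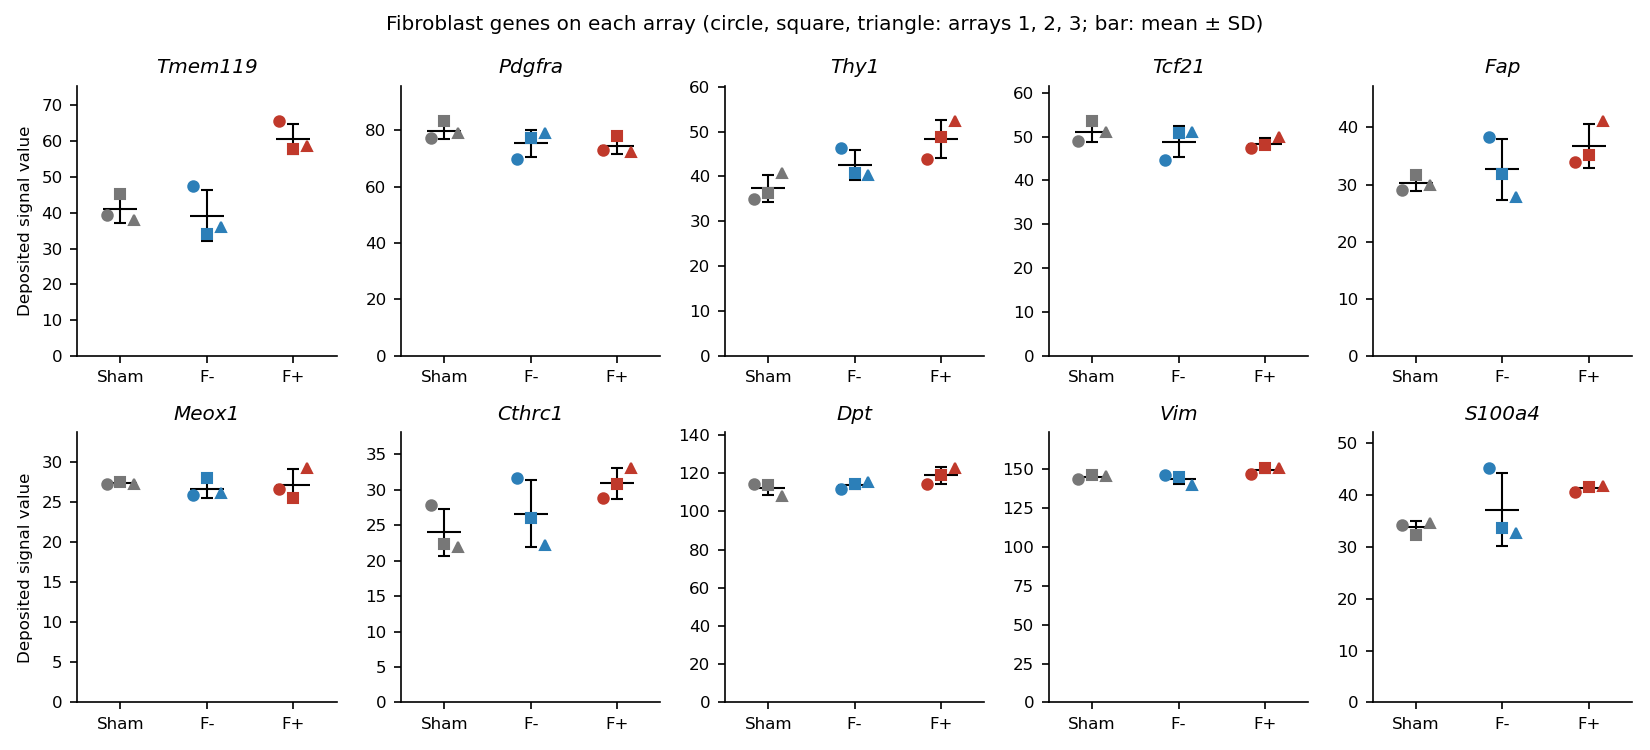
Deposited signal values (vertical axes, from 0) of the 10 genes, by group. A circle stands for array 1, a square for array 2 and a triangle for array 3. The mean is a horizontal bar and the SD the error bar. The F+ arrays of Tmem119 lie between 57.7 and 65.6, above all the others, and F- array 1 lies apart from F- arrays 2 and 3 for S100a4, at 45.3.

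S100a4, Thy1, Cthrc1, Fap and Vim had their highest group means in the F+ group, as had Dpt, which is described further below. S100a4 read 34.3, 32.3 and 34.7 (Sham), 45.3, 33.7 and 32.7 (F-) and 40.7, 41.5 and 41.8 (F+). F- array 1 thus held the highest value of all, and F- arrays 2 and 3 lay within the Sham range. The F+ mean of 41.3 ± 0.569 (SD, n = 3) stood above the Sham mean of 33.8 ± 1.29 (SD, n = 3), with a log2 difference of 0.29 (95% confidence interval 0.032 to 0.55, adjusted p = 0.655 from limma). Against the F- group the difference was 0.17 (adjusted p = 0.748 from limma), and it ranged from 0.081 without F- array 3 to 0.32 without F- array 1. Without Sham array 2 the difference from the Sham group was 0.26.

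Thy1 read 35, 36.3 and 40.7 (Sham), 46.3, 40.8 and 40.3 (F-) and 43.9, 48.8 and 52.3 (F+). Its group means rank Sham, F- and F+, but neighbouring groups overlapped, by F- array 3 under Sham array 3 and by F+ array 1 under F- array 1. The difference between the F+ and Sham groups was 0.37 on the log2 scale (limma, 95% confidence interval 0.17 to 0.57, adjusted p = 0.6), or 1.29-fold, and 1.79-fold if the values were squares of log2 signals. The difference was 0.19 for F+ over F- (adjusted p = 0.677) and likewise 0.19 for F- over Sham (adjusted p = 0.743).

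Cthrc1 read 27.8, 22.3 and 21.9 (Sham), 31.6, 26 and 22.2 (F-) and 28.8, 30.8 and 33.1 (F+). The F+ and Sham arrays did not overlap, with a log2 difference of 0.37 (95% confidence interval 0.046 to 0.70, adjusted p = 0.651 from limma). The F- arrays spanned nearly the range of both other groups, and the log2 difference between the F+ and F- groups was 0.23 (adjusted p = 0.731 from limma), from 0.11 without F- array 3 to 0.36 without F- array 1. Its lower values were dim, under the 24.84 that bounds the dimmest 33.3% of features by mean.

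Fap read 29, 31.6 and 30 (Sham), 38.4, 31.9 and 27.8 (F-) and 33.9, 35.1 and 41.1 (F+). F- array 1, the highest F- array as for S100a4, lay among the F+ arrays, and F- array 3 lay below all Sham arrays. For F+ against Sham the log2 difference came to 0.28 (standard error 0.12, adjusted p = 0.67 from limma), and that between the F+ and F- groups was 0.17 (adjusted p = 0.753 from limma). Without F+ array 3 the first of these was 0.19, and the second ranged from 0.063 without F- array 3 to 0.30 without F- array 1.

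Vim was bright and differed little between the groups. The values read 143.5, 146.1 and 145.4 (Sham), 146.1, 144.9 and 140 (F-) and 146.9, 150.4 and 150.8 (F+). Each F+ array lay above each of the other 6 arrays, the closest values being 146.9 and 146.1. The log2 difference was 0.056 between the F+ and F- groups (95% confidence interval -0.0042 to 0.12, adjusted p = 0.676 from limma) and 0.043 between the F+ and Sham groups (adjusted p = 0.728). If the values were squares of log2 signals, the first would be 1.18-fold in place of 1.04-fold.

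Dpt and Meox1 differed little between the groups. Dpt read 114.5, 114.1 and 108.2 (Sham), 111.5, 114.5 and 115.6 (F-) and 114.5, 119.1 and 122.9 (F+). F+ array 1 equalled the highest Sham array, and the log2 difference between the F+ and Sham groups was 0.082 (95% confidence interval -0.0027 to 0.17, adjusted p = 0.676 from limma). Meox1 read 27.3, 27.5 and 27.3 (Sham), 25.9, 28 and 26.1 (F-) and 26.7, 25.5 and 29.3 (F+), with means of 27.4 ± 0.115, 26.7 ± 1.16 and 27.2 ± 1.94 (SD, n = 3 each). F+ arrays 2 and 3 held both its lowest and its highest value. Its log2 difference was 0.025 between the F+ and F- groups (95% confidence interval -0.099 to 0.15, adjusted p = 0.923 from limma).

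Pdgfra and Tcf21, markers of resident fibroblasts, had their highest group mean in the Sham group, as had Meox1. Pdgfra and Tcf21 do not stand for all genes of resident fibroblasts. Of 23 other measured genes of these cells, 16 were higher and 7 lower in F+ than in Sham. Pdgfra read 77.3, 83.2 and 79 (Sham), 69.8, 77.3 and 78.9 (F-) and 73, 77.9 and 72.4 (F+). F- array 1 was the lowest and Sham array 2 the highest, and the groups overlapped. Its log2 difference was -0.10 between the F+ and Sham groups (95% confidence interval -0.23 to 0.026, adjusted p = 0.707 from limma), -0.085 between the F- and Sham groups (adjusted p = 0.752) and -0.016 between the F+ and F- groups (95% confidence interval -0.14 to 0.11, adjusted p = 0.958). Tcf21 read 48.9, 53.5 and 51 (Sham), 44.7, 50.9 and 51 (F-) and 47.3, 48 and 49.8 (F+). Again F- array 1 was the lowest and Sham array 2 the highest. Its log2 difference was -0.080 between the F+ and Sham groups (adjusted p = 0.762 from limma) and -0.012 between the F+ and F- groups (95% confidence interval -0.15 to 0.12, adjusted p = 0.969). The sign of this last difference turned for both genes when single arrays were left out, with 0.018 for Pdgfra and 0.020 for Tcf21 without F- array 3.

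**Figure D2:**
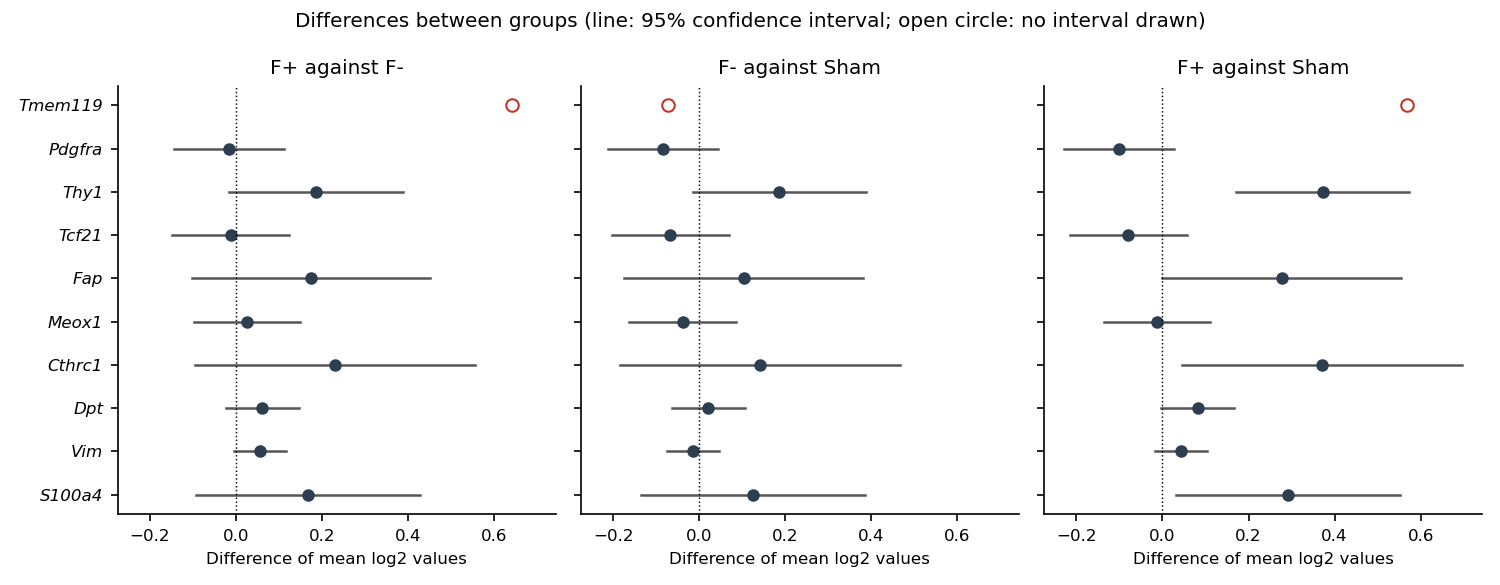
Differences of mean log2 values (horizontal axes) of the 10 genes in the 3 comparisons, F+ against F-, F- against Sham and F+ against Sham, as points with 95% confidence intervals from limma as lines. Tmem119, an open circle without an interval because it was chosen by these values, lies at 0.64 and 0.57 in the comparisons with the F+ group, and the intervals of Thy1, Cthrc1, S100a4 and, barely, Fap lie above 0 in the comparison of the F+ and Sham groups.

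Of the 9 genes other than Tmem119, 0 passed limma's adjusted threshold of 0.05 in any comparison. That threshold was passed by 0.00342% of the 29215 features for F+ against F-, by 0% for F- against Sham and by 0% for F+ against Sham. At an unadjusted p under 0.05 from limma, 4 of the 9 were higher for F+ against Sham, namely Thy1, Fap, Cthrc1 and S100a4. Of all features, 7.4% reached that limit there, 3.5% upwards and 3.9% downwards. Without Sham array 2 the count fell to 1 of 9, Thy1, against 3.06% of all features upwards, and it was also 1, Thy1, without Sham array 3, F+ array 2 or F+ array 3, and 2 without Sham array 1. Thy1 was at that limit whichever single array was left out, and the interval of Fap began at 3.25e-05 with all arrays. For F+ against F- the count was 0 of 9, where 3.65% of all features reached it upwards and 3.76% downwards. Without F- array 1 it was 5 of 9, all higher, namely Thy1, Fap, Cthrc1, Vim and S100a4, against 5.22% of all features upwards. F- array 1 held the highest F- value of each of those 5, so that count follows from the array left out and is no test. Without F+ array 1 the count was 1, Thy1. For F- against Sham it was also 0 of 9, where 6.03% reached it, 3.07% upwards and 2.96% downwards, and 1, Thy1, without Sham array 3 or F+ array 1. With 3 arrays in each group, an exact permutation test (two-sided) of a single gene has 0.1 as its smallest possible p.

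The F+ and Sham arrays did not overlap for 6 of the 10 genes, each time with the F+ arrays above. They were Thy1, Fap, Cthrc1, Vim, S100a4 and Tmem119, which was chosen for its high F+ values. Over all features the F+ arrays lay wholly above the Sham arrays in 5.69% and wholly below in 6.56%. The median log2 difference of the 10 genes, Tmem119 included, was 0.18 between these groups, and that of all features was -0.0035. Among the 9 without Tmem119 the middle value was that of Dpt, 0.082. Between the F+ and F- groups 2 of the 10, Vim and, by the way it was chosen, Tmem119, had all F+ arrays above the F- arrays, and over all features this held for 4.46% upwards and 5.28% downwards. The median of the 10 was 0.11 there, against -0.0023 for all features, and among the 9 without Tmem119 the middle value was again that of Dpt, 0.061. Without F- array 1, 6 of the 10 had all F+ arrays above the remaining F- arrays, the same 6 genes as against the Sham group, and 1, Tcf21, had all F+ arrays below. The shares over all features were then 11.1% above and 12.8% below. F- array 1 held the highest F- value of each of these 6 genes, so the larger count follows from the array left out. Without F+ array 1 the count above was 4, against 8.41% of all features. Without any other single array of these groups it stayed at 2, against 7.39% to 9.41%. Between the F- and Sham groups 0 of the 10 were free of overlap in either direction, against 5.15% of all features upwards and 4.64% downwards. In that comparison 5 had higher and 5 lower means, and the median was 0.0036. These comparisons share arrays, and since the genes were put together with results of these data known, the counts describe the list and are no separate evidence for it.

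**Figure D3:**
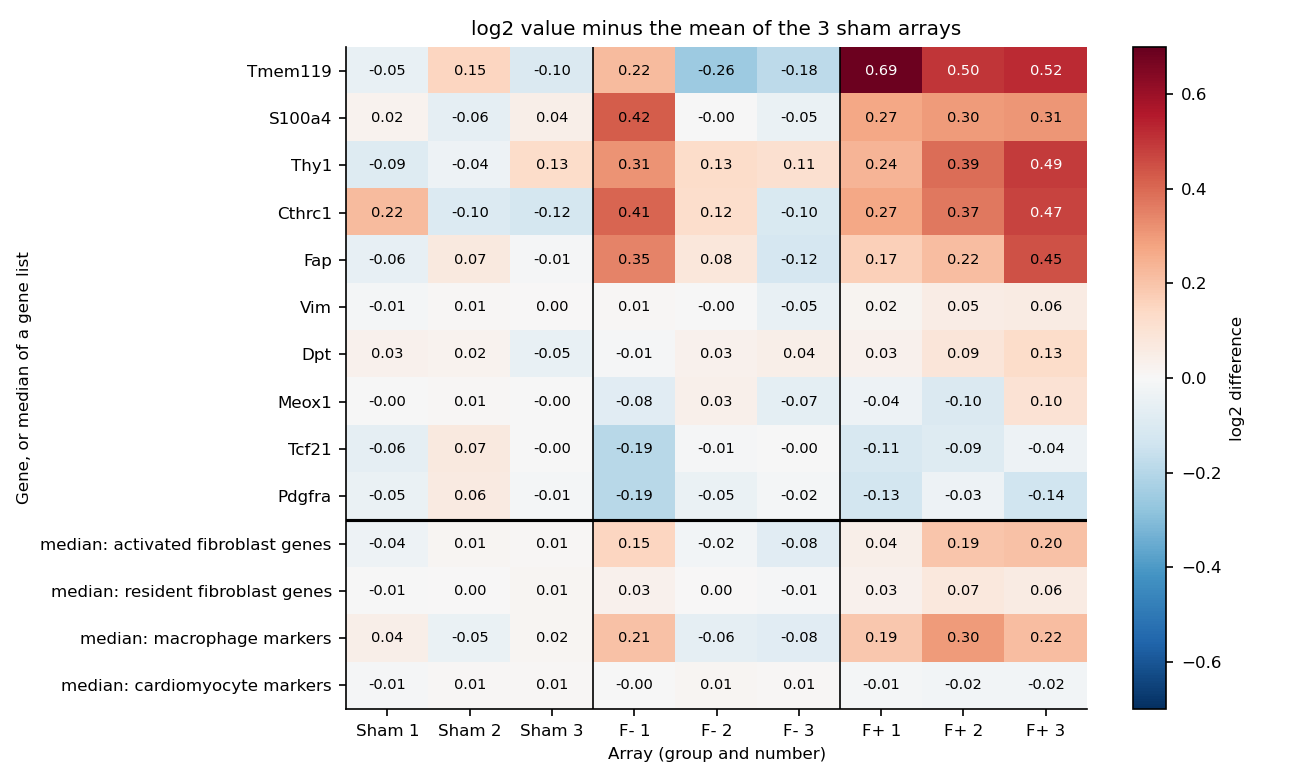
Log2 value minus the mean of the 3 Sham arrays (colour and printed number) for each of the 10 genes on each array, and below the line the median of 4 wider gene lists. On F- array 1, S100a4 stands at 0.42, Cthrc1 at 0.41, Fap at 0.35 and Thy1 at 0.31, while Pdgfra and Tcf21 stand at -0.19, and the macrophage median is 0.21.

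Some of the 10 genes varied together over the arrays. The correlations given here are descriptions over 9 arrays, which share the group differences and the arrays that stood apart. S100a4 and Cthrc1 had a Pearson r of 0.87, S100a4 and Fap of 0.86, Thy1 and Fap of 0.84 and Fap and Vim of 0.82. Pdgfra and Tcf21 had 0.84 with each other, and S100a4 had -0.85 with each of them. After the mean of each group was subtracted, S100a4 and Fap kept 0.75, Fap and Vim 0.85 and Pdgfra and Tcf21 0.79, whereas S100a4 had -0.82 with Pdgfra and -0.86 with Tcf21. Other pairs fell, Thy1 and Cthrc1 from 0.71 to 0.34, Cthrc1 and Vim from 0.68 to 0.52 and S100a4 and Vim from 0.67 to 0.55. Without F- array 1 the r of S100a4 was 0.82 with Fap, -0.76 with Pdgfra and -0.76 with Tcf21. Tmem119 had 0.75 with S100a4 and 0.77 with Vim over the arrays, and 0.68 and 0.27 after the group means were subtracted. Meox1 had no r beyond 0.48 in size with any of the others.

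**Figure D4:**
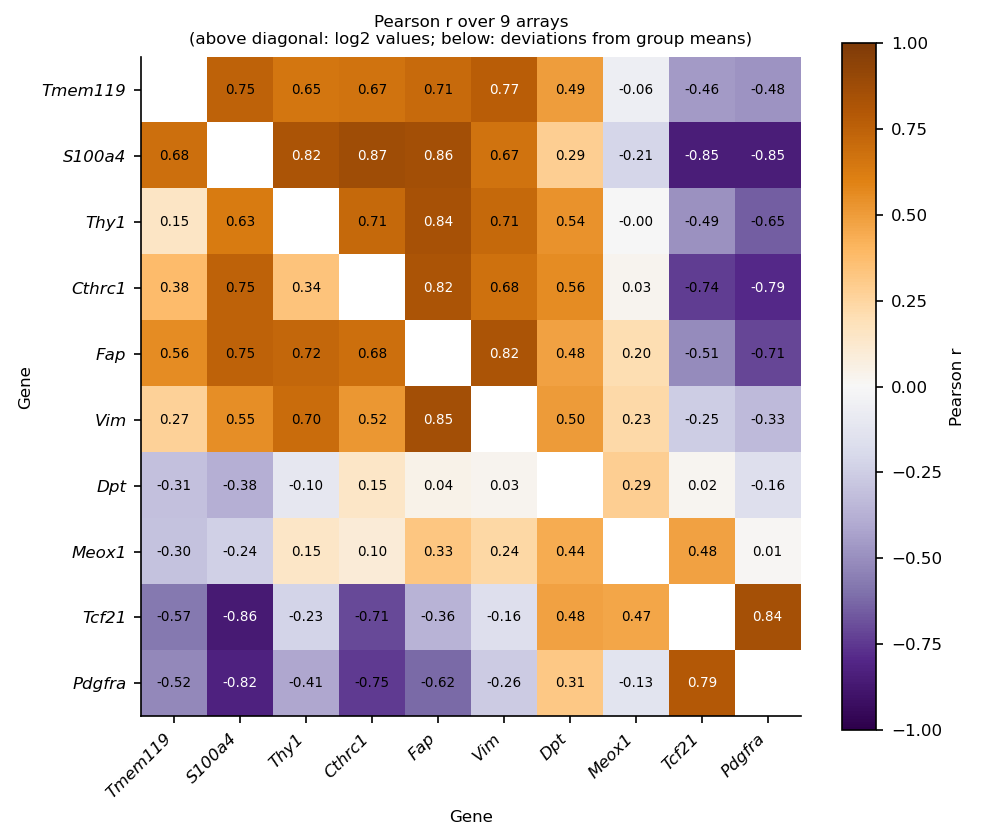
Pearson r between the 10 genes over the 9 arrays, from log2 values above the diagonal and from deviations from the group means below it. S100a4, Thy1, Cthrc1, Fap and Vim have r from 0.67 to 0.87 with each other above the diagonal and from 0.34 to 0.85 below it. S100a4 runs against Tcf21 and Pdgfra at -0.85 above the diagonal.

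Genes of other cells varied with some of the 10 over the same arrays. The values of Pdgfra were most like those of Myl7 among 11590 features with 1 symbol outside the dimmest 33.3%, with an r of 0.95, followed by Bicral at 0.948 and Maged1 at 0.947. The r of Pdgfra and Myl7 was 0.93 without Sham array 2 and 0.96 after the group means were subtracted. Tcf21 and Myl7 had 0.83, and 0.74 without Sham array 2. Of the 13 macrophage markers, all 13 had higher means in F+ than in the Sham group against 47.5% of all features, and 11 were free of overlap, against 5.69% of all features upwards. Between the F+ and F- groups all 13 were again higher, against 48.2% of all features, with a median of 0.21, and 5 were free of overlap, against 4.46% upwards. Their summed deposited level was 727.5 to 773.1 (Sham), 723.3 to 873.9 (F-) and 875.2 to 917.5 (F+). F- array 1 held the 873.9 for the macrophages as it held the highest S100a4 value. The r with the median of the macrophage list was 0.93 for S100a4, 0.86 for Cthrc1, 0.85 for Tmem119 and -0.73 for Tcf21, and after the group means were subtracted it was 0.95, 0.76, 0.57 and -0.87. The value for Tmem119 with all arrays includes the group difference by which the gene was chosen. The part of macrophages, pericytes, smooth muscle or atrial tissue in the values of the 10 genes was not tested. Of 10 measured T cell markers, 6 were higher in F+ than in Sham with a median of 0.032. Among these 6, 4 lay in the dimmest 33.3% of features, namely Cd3e, Cd3d, Cd3g and Il7r. Their summed level was 310.6 to 320.3 (Sham), 305.6 to 319.5 (F-) and 314.8 to 337.6 (F+). Of 10 endothelial markers, which bear on Vim, 5 were higher, with a median of 0.0067, and of 11 pericyte and smooth muscle markers 9 were higher, with a median of 0.020. Between the F+ and F- groups all 11 pericyte and smooth muscle markers were higher, with a median of 0.095, 4 of them free of overlap and 6 at an unadjusted p under 0.05 from limma, against 3.65% of all features upwards. There 6 of the 10 T cell markers were higher, with a median of 0.097, and 7 of the 10 endothelial markers, with a median of 0.031. All 11 cardiomyocyte markers were lower in F+ than in F-, with a median of -0.020, and 10 of them were lower than in the Sham group, with a median of -0.014. For 7 epicardial and mesothelial markers the median between the F+ and Sham groups was -0.057, for 6 Schwann cell markers -0.045 and for 7 atrial markers -0.040. With all arrays, no gene of these lists passed limma's adjusted threshold in any comparison. Without Sham array 2 and F- array 1, Nppa passed between the F+ and F- groups, with a log2 difference of 1.81 (adjusted p = 0.0154 from limma). F- array 1 was set apart partly by its own high Nppa value, so this result is no test of Nppa. With all arrays its difference was 1.16 (adjusted p = 0.682 from limma), and the arrays overlapped.

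Reln, which encodes the secreted glycoprotein reelin, had the values most like those of Tmem119 among those 11590 features, with an r of 0.97 over the 9 arrays. The values read 35.1, 34.4 and 29.9 (Sham), 35.7, 28.6 and 30.1 (F-) and 45, 42.7 and 40.7 (F+). The next were Ganab, an endoplasmic reticulum glucosidase subunit, at 0.96, Pira2 at 0.95, Gnai2, an inhibitory G protein subunit, at 0.947 and Ptgs1, which encodes cyclooxygenase 1, at 0.946. Leaving out any single array left these 5 at 0.929 or more. Since they were picked as the highest of many, their likeness is a description only.

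**Figure D5:**
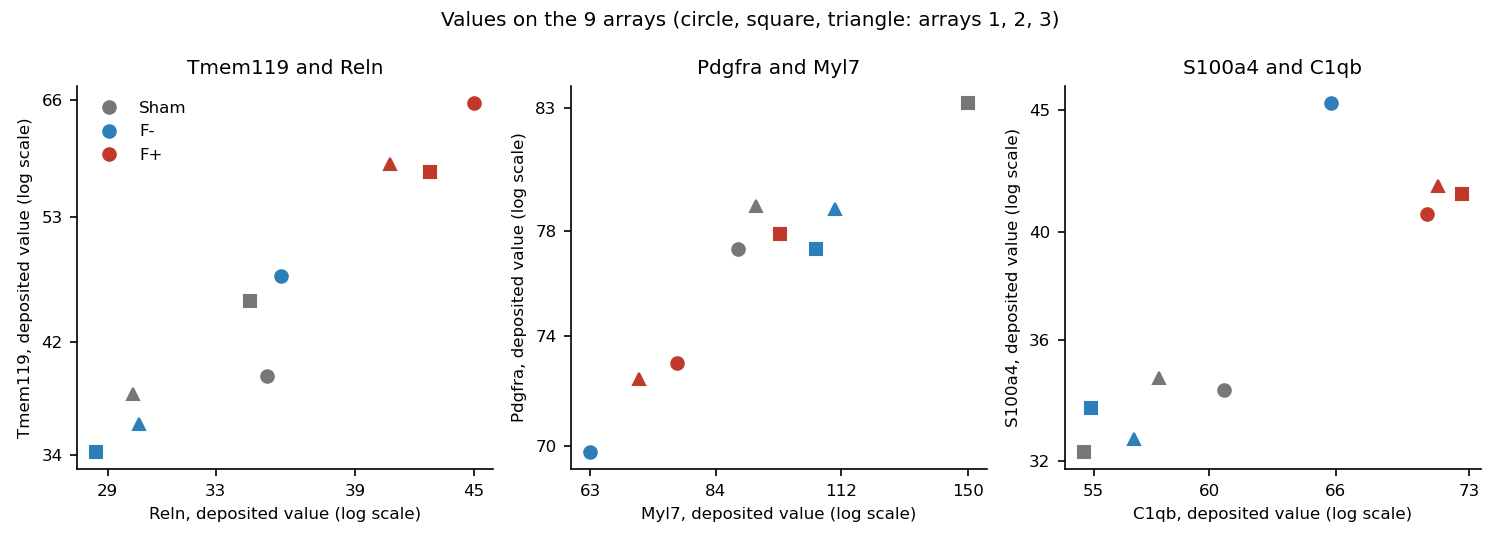
Deposited values on log axes for Tmem119 against Reln, Pdgfra against Myl7 and S100a4 against C1qb, with the Sham arrays in grey, F- in blue and F+ in red, and the marker shape giving the array number. Sham array 2 lies at the upper end for Pdgfra (83.2) and Myl7 (149.9), and F- array 1 has the highest S100a4 value (45.3) with a C1qb value of 65.8 between the Sham and F+ arrays.

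Wider lists of fibroblast genes were read beside the 10, and 0 of their members passed limma's adjusted threshold in any comparison. Of 23 measured genes of resident fibroblasts, 17 were higher in F+ than in F-, with a median log2 difference of 0.058. An unadjusted p under 0.05 from limma was reached by 7, of which 6 were higher and 1 lower. Of all features 7.41% reached it in either direction, 3.65% upwards and 3.76% downwards. Pi16, a marker of adventitial fibroblasts, read 68.3 to 86.7 (F-) and 83.6 to 94 (F+), a log2 difference of 0.22 (adjusted p = 0.671 from limma). Gfpt2, an enzyme of hexosamine synthesis, differed by 0.19 (adjusted p = 0.708). Dpp4, a cell surface peptidase, read 50.6 to 51.2 (F-) and 42 to 48.4 (F+), a log2 difference of -0.19 (adjusted p = 0.61). Against the Sham group 16 of the 23 had a higher F+ mean (median 0.052) and 12 of the 23 a higher F- mean (median 0.0059).

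Of 20 measured genes of activated fibroblasts and myofibroblasts, 19 were higher in F+ than in F-, with a median of 0.13, and 4 had an unadjusted p under 0.05 from limma, all higher, against 3.65% of all features upwards. Without F- array 1 these became 19 and 14, with a median of 0.18, against 5.22% of all features upwards. The median of the list, as log2 value minus the mean of the Sham arrays, was 0.15 on F- array 1. It was -0.021 and -0.081 on F- arrays 2 and 3, so the larger count follows from the array left out and is no test. Without Sham array 2 the 4 became 3, against 3.15% of all features upwards. Sfrp2, a secreted modulator of Wnt signalling, was 56.4, 43.8 and 44.8 (F-) and 59.9, 77.7 and 69.6 (F+), a log2 difference of 0.52 (adjusted p = 0.516 from limma). Its F+ values overlapped the Sham values of 57.5 to 61.6. Postn, which encodes periostin, was 65.5 to 77.6 on the F+ arrays but 86.7 on F- array 1, against 43.6 and 35.4 on F- arrays 2 and 3 and 40.5 to 50.2 on the Sham arrays. Its log2 difference between the F+ and F- groups was 0.47 (adjusted p = 0.733), from 0.20 without F- array 3 to 0.85 without F- array 1. Timp1, an inhibitor of matrix metalloproteinases, gave 102.8 on F- array 1 and 96.4 to 105.6 on the F+ arrays, with a log2 difference of 0.41 (adjusted p = 0.671), from 0.29 without F- array 3 to 0.63 without F- array 1. Postn and Timp1 thus had F- array 1 level with the F+ arrays or above them, as S100a4 and Fap had. Between the F- and Sham groups 12 of the 20 were higher with all arrays and 1 of the 20 without F- array 1, where the median was -0.049. For F+ against Sham 18 of the 20 had a higher mean, and the median was 0.16.

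Of 22 measured transcription factors of fibroblasts, Tcf21 and Meox1 among them, 16 were higher in F+ than in F-, with a median of 0.025. Snai1, a regulator of the change from epithelial to mesenchymal cells, read 36.3 to 40.4 (F-) and 42.4 to 45 (F+), a log2 difference of 0.19 (adjusted p = 0.594 from limma). Nr2f2, a nuclear receptor, differed by 0.18 (adjusted p = 0.635) and Prrx1, a homeobox factor of mesenchyme, by 0.17 (adjusted p = 0.624). Between the F- and Sham groups 5 of the 22 were higher, and between the F+ and Sham groups 13.

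The genes around PDGFRA in its pathway differed little. Of 12 genes of the PDGF pathway, with Pdgfra, 4 were higher and 8 lower in F+ than in F-, with a median of -0.0073. The ligand gene Pdgfa had a log2 difference of -0.11 (adjusted p = 0.687 from limma) and the ligand gene Pdgfb of 0.081 (adjusted p = 0.674). The receptor gene Pdgfrb, which pericytes and fibroblasts use, read 84.7 to 89.5 (F-) and 89.6 to 95.9 (F+), a log2 difference of 0.11 (adjusted p = 0.637). Between the F+ and Sham groups 3 of the 12 were higher, and between the F- and Sham groups 5.

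Genes of the other tissues in which Tmem119 is known had small median differences. Of 15 measured bone and mineral genes, 13 were higher in F+ than in F-, with a median of 0.035, and 4 lay in the dimmest 33.3% of features. Fgf23, the bone hormone that lowers phosphate and that the study picked on these arrays, had a log2 difference of 0.65 without a test here. Spp1, which encodes osteopontin and is also made by macrophages, had 0.51 (adjusted p = 0.711 from limma), or 0.34 to 0.84 with single arrays left out, with 66.6 on F- array 1 and 67 on Sham array 3 above its F+ values of 55.6 to 63.3. Runx2, a regulator of osteoblasts, had 0.14 (adjusted p = 0.673). Of 7 measured microglia genes, 4 were higher and 3 lower in F+ than in F-, with a median of 0.0070. Cx3cr1, a chemokine receptor also found on other macrophages, had 0.32 (adjusted p = 0.67), Trem2, a receptor of lipid-handling macrophages, 0.18 (adjusted p = 0.806) and P2ry12, a purinergic receptor, 0.093 (adjusted p = 0.699). Without F+ array 2 the difference of Trem2 was 0.016. Among the macrophage markers the 3 genes with the greatest difference were Cd163, a haemoglobin scavenger receptor, at 0.38 (adjusted p = 0.594), Mrc1, the mannose receptor, at 0.28 (adjusted p = 0.635) and C1qb, a complement C1q chain, at 0.28 (adjusted p = 0.567), and F- array 1 held the highest F- value of each.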

How the data were processed

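Total RNA of right ventricles was hybridised to Affymetrix arrays of the Rat Gene 1.0 ST design. The authors deposited 1 signal intensity for each feature and array. Their normalization, scale, software and build are not given in the sources used here, and array medians were nearly equal. The methods also state that hybridizations were run in triplicate with averaged intensities. All 9 arrays and 29215 features were used. The platform annotation gave 1 symbol for 15310 features, several for 323, and 13582 were not listed. Members were matched to RefSeq GRCr8 by gene ID.

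After log2 transformation, limma 3.58.1 in R 4.3.3 was run with 1 mean per group on all features, with Benjamini-Hochberg adjustment over the whole array and a threshold of 0.05. The precision is limited by the 3 arrays of each group. Of several features of a gene, the one with the highest mean over all arrays was used. Genes and lists were chosen with earlier results of these data known. The text names all 10 genes, the 3 genes with the greatest difference between the F+ and F- groups of the fibroblast, PDGF, bone, microglia and macrophage lists (genes already named left out), Myl7, Nppa and Bmp10 (chosen after its values were seen), and the genes most like Tmem119 and Pdgfra. The other lists are given by counts. The alternatives were quantile normalization, median centring, square roots or untransformed values, leaving out the dimmest 33.3% or the features without 1 symbol, robust limma priors with a trend, a replicate block, fits to each pair of groups alone, averaging the features of a gene, and leaving out arrays. The fit was tested on simulated data. Promoters were searched with Python 3.11.15, and plots drawn with matplotlib 3.10.9. Replicate numbers were not used as a pairing in the main fit.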

Additional observations from a re-analysis of the deposited data

How the results depend on the processing

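Of the 9 genes other than Tmem119, 0 passed in any comparison under any alternative. Their lowest adjusted p from limma was 0.0773, for S100a4 between the F+ and F- groups without Sham array 2 and F- array 1. F- array 1 held the highest S100a4 value of all, 45.3, so this value is no test of S100a4. With all arrays its adjusted p from limma was 0.748. The median differences of the 10 genes stayed within 0.068 to 0.16 (F+ against F-), -0.019 to 0.018 (F- against Sham) and 0.13 to 0.21 (F+ against Sham) on the log2 scale, and leaving out single arrays gave these same bounds. These medians include Tmem119, which was chosen by its values. They were 0.29, 0.0099 and 0.43 with square roots of the values, and 4.2, 0.45 and 6.53 in deposited units without a transformation, scales on which they cannot be set against log2 values. Against Sham, without Sham array 2 and F- array 1, the F- differences turned to 0.029 for Tcf21, -0.038 for Cthrc1 and -0.056 for S100a4. With single arrays left out, further differences turned sign, among them those of Fap and S100a4 between the F- and Sham groups, without F- array 1. Between the F- and Sham groups the ranges were -0.22 to 0.019 for Tmem119, -0.019 to 0.21 for Fap, -0.0056 to 0.036 for Dpt, -0.026 to 0.0050 for Vim and -0.024 to 0.21 for S100a4. Between the F+ and F- groups they were -0.070 to 0.018 for Pdgfra, -0.075 to 0.020 for Tcf21 and -0.030 to 0.070 for Meox1, and between the F+ and Sham groups -0.069 to 0.031 for Meox1. The causes were not tested. With the replicate number as a block, 0 of these genes passed and the median of the 10 between the F+ and F- groups was 0.11, as without it. Deviations of same-numbered arrays of different groups correlated at -0.205 to 0.0532, and those of arrays with different numbers at -0.115 to 0.264. These values show no sign of a pairing by number, but they cannot show whether same-numbered arrays were processed together. Between the F+ and F- groups, 1 feature of the array passed in the fit, 3 without the dimmest 33.3% of features and 0 with the block.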
